A study of Homo sapiens with 6 samples.

Results

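The genes described here are 36 human genes of the hypoxia response and of glycolysis, chosen as a list: regulators of oxygen sensing, the enzymes and transporters that carry glucose to lactate, and other well-known targets of the hypoxia-inducible factors. A gene was measured by the probe sets of the array that carried its symbol and no other symbol, and where a gene had more than 1, the probe set with the highest mean over all arrays was kept. By this rule 33 of the 36 genes were analysed, of 18417 genes in all, and all 33 lay above the filter on low signal that left 13808 genes to test. CA9, SLC16A3 and PGAM1 were not analysed here, the last because it shared each of its 5 probe sets with other symbols.

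The study measured total RNA on 6 arrays. The cells were 92.1, Mel 270 and Mel 290, established human lines of uveal melanoma, a tumour that derives from melanocytes of the eye. In the co-culture group, each line grew below an insert that held 1500000 activated T cells of healthy volunteers per well, so that only soluble factors could pass, and in the other group each line grew alone. Every line was thus present once in each group, with 3 arrays per group. All wells had a serum-free medium for 64 h, 80000 cells of 92.1 and 100000 cells of each of the other 2 lines were plated, and Mel 290 was confluent at the change of medium when 92.1 and Mel 270 were not yet so. No group was a hypoxia treatment. Each line stands for 1 tumour, and repeat cultures of a line were not part of the samples used here.

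Hypoxia-inducible factors are transcription factors whose alpha subunits are made all the time and destroyed while oxygen is plentiful: prolyl hydroxylases mark them, and the VHL ubiquitin ligase removes them. When oxygen falls, or when growth and inflammatory signals raise their synthesis, the alpha subunits pair with ARNT, bind short DNA motifs with the core ACGTG or GCGTG, and raise the transcription of glucose transporters, of nearly every glycolytic enzyme and of genes for vessel growth, matrix and mitophagy. Tumour cells often run glycolysis in this way, and uptake of glucose and release of lactate are a known trait of aggressive melanoma.

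The core motif can be seen in the promoters of genes on which the results turn. The windows below run, on the gene's own strand, from 250 bases before to 50 bases after the transcription start in RefSeq (GRCh38.p14), and capitals mark each ACGTG or GCGTG on either strand, merged where matches overlap. ADM, ANKRD37 and HK2 are shown as 3 of the 9 genes at least 2-fold higher in co-cultured Mel 270, and LDHA and GPI as the genes at least 2-fold lower in co-cultured 92.1. All 5 lie on the plus strand. Where RefSeq has several starts the most upstream is shown.
ADM, chr11:10304823-10305122, plus strand: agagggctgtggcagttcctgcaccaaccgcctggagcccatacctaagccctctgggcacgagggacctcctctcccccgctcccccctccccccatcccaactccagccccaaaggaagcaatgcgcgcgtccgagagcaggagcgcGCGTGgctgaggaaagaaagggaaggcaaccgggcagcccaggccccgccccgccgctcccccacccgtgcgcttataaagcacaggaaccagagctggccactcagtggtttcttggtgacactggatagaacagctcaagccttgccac
ANKRD37, chr4:185396591-185396890, plus strand: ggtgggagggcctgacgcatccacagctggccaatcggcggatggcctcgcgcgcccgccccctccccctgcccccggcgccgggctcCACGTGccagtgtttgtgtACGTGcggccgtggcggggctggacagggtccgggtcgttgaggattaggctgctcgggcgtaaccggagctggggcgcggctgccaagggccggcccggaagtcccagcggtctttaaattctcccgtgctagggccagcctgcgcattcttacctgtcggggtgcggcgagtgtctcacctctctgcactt
HK2, chr2:74833877-74834176, plus strand: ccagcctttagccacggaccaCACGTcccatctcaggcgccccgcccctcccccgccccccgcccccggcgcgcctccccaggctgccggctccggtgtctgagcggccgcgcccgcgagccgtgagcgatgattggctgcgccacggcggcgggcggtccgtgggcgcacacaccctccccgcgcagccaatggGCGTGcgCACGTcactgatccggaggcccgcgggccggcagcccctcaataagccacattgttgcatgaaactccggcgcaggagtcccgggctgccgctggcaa
LDHA, chr11:18394313-18394612, plus strand: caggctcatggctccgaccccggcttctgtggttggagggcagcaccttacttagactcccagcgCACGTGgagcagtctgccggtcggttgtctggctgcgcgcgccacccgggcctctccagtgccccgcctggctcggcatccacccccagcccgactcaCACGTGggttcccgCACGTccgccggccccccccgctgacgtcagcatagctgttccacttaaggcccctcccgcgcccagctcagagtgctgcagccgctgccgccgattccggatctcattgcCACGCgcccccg
GPI, chr19:34364742-34365041, plus strand: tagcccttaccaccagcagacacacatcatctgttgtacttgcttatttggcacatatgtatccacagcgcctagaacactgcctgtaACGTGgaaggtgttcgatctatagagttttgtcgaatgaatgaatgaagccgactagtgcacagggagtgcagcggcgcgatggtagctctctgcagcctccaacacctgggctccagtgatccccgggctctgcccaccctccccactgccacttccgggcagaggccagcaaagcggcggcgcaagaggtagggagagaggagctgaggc
The window of ADM held 1 motif site, that of ANKRD37 held 2, that of HK2 held 3, that of LDHA held 4 and that of GPI held 1. Among the other genes at least 2-fold higher in Mel 270, the windows of EPAS1, PFKFB4 and SLC2A1 held 1 site each and that of P4HA2 held 0. RefSeq windows were matched for 30 of the 33 genes, BNIP3L, NDRG1 and SLC2A3 being the ones without an entry, and gave 50 windows. Windows of the same gene can overlap, as those of KDM3A did, so that 1 site can count in more than 1 window. At least 1 motif lay in 37 of the 50 windows (74.0%), against 59.4% of the 15632 windows of tested genes and 48.4% of all 35116 windows in the table. At least 2 sites lay in 28.0% of the windows of these genes, against 27.1% of those of tested genes. GC content also differed, with a median of 69.3% in these windows and 64.7% in the windows of tested genes, and its part in these shares was not tested. A match is a description of the letters and shows no binding.

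Values are the deposited log2 signals, so that 1 unit is a 2-fold difference, and a signal is compared only with that of the same probe set on another array. A change is the log2 signal in co-culture minus that of the same line alone. It was tested with limma (lmFit and eBayes) with cell line as a block over all 13808 genes, and a gene was called at a Benjamini-Hochberg adjusted p-value under 0.05. The replicates of this test are the 3 lines, so that its p-values reflect how the lines vary and say nothing of repeat cultures. The 95% confidence intervals use a variance that eBayes also draws from the other genes. They do not follow from the SD printed beside them, which is that of the 3 lines alone. An exact permutation of the labels within the 3 pairs, two-sided, has 0.25 as its smallest possible p. Array medians lay between 6.63 and 6.69. All 3 lines responded to the co-culture: the interferon-gamma target IRF1 was 5.23, 4.51 and 4.50 higher in co-cultured 92.1, Mel 270 and Mel 290 (adjusted p = 0.00387, limma). Of 7 melanocyte markers, 6 lay above the filter level of 5.80 on both arrays of 92.1 (S100B lay below it) and all 7 on both arrays of Mel 270. In Mel 290, MITF, SOX10 and PMEL lay above it on both arrays, PMEL at 5.97 in co-culture and 6.10 alone, and MLANA, TYR, TYRP1 and S100B lay below it. The summed log2 signal of these 7 was 70.9, 69.3 and 40.8 in co-cultured 92.1, Mel 270 and Mel 290, against 74.0, 79.1 and 41.5 in the same lines alone. For 10 T cell markers it was 50.2, 50.6 and 58.4 in co-culture, against 50.2, 52.1 and 56.9 alone, and CD3D, CD3E and CD3G lay below the filter level on every array. CD8A lay above it on every array (6.04 to 6.73), and IL7R did so in Mel 290, with 10.43 in co-culture and 9.75 alone.

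The hypoxia and glycolysis genes had no common direction in co-culture. Mel 270 had higher signal in co-culture for most of them, led by the glucose transporter SLC2A3 (9.31-fold) and by ADM, which encodes the vasodilator peptide adrenomedullin (6.56-fold). In 92.1 and Mel 290 most had lower signal, led in 92.1 by the glycolytic enzymes GPI (2.98-fold lower) and LDHA (2.15-fold lower). None of the 33 genes was called higher, against 0.413% of the 13808 tested genes, and none was called lower, against 0.0362%. At an unadjusted p-value under 0.05, 2 were higher (ADM and EGLN1), or 6.06% against 7.02% of tested genes, and 4 were lower (ALDOA, ENO1, GPI and PFKFB3), or 12.1% against 13% of tested genes. The median over the 33 genes of the mean change was 0.00354, against -0.04 over all tested genes.

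In Mel 270, 9 of 33 genes were at least 2-fold higher in co-culture (27.3%, against 5.29% of tested genes) and 0 were at least 2-fold lower (against 4.52%). In 92.1, 0 were at least 2-fold higher (against 3.63%) and 2 were at least 2-fold lower (6.06%, against 2.71%). In Mel 290, 1 was at least 2-fold higher (3.03%, against 2.07%) and 0 were at least 2-fold lower (against 2.3%). Counted by sign alone, 27 of 33 genes were higher in co-cultured Mel 270 (81.8%, against 42.7% of tested genes), 10 in 92.1 (30.3%, against 39.9%) and 11 in Mel 290 (33.3%, against 50.8%). The median change over the 33 genes was -0.21 in 92.1, 0.47 in Mel 270 and -0.13 in Mel 290, against -0.08, -0.06 and 0.01 over all tested genes. Each of these values rests on 1 array per line and condition, so the difference between lines has no test.

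**Figure D1:**
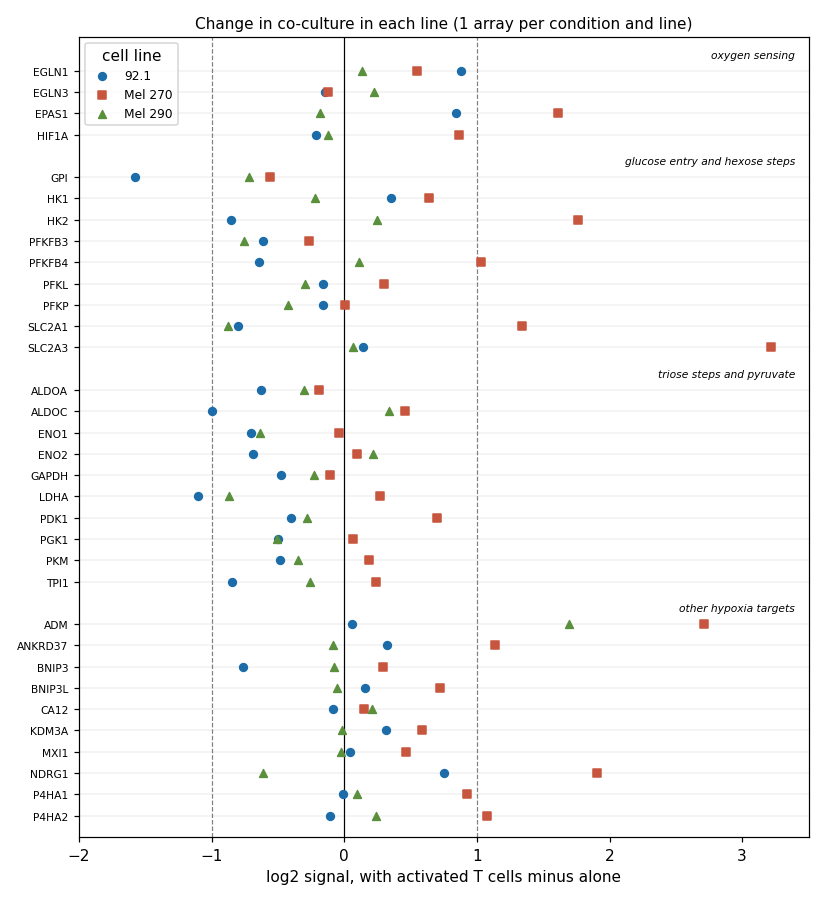
Change of each of the 33 genes in each line, as log2 signal with activated T cells minus alone, with genes grouped by role down the page and dashed lines at a 2-fold difference. Circles stand for 92.1, squares for Mel 270 and triangles for Mel 290, 1 array per line and condition. The square lies furthest right for 29 of the 33 genes.

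The change in Mel 270 was above that in both other lines for 29 of the 33 genes (87.9%, against 32.3% of tested genes), the exceptions being CA12, EGLN1, EGLN3 and ENO2. In 17 genes the signal was higher in co-cultured Mel 270 and lower in co-cultured 92.1 (51.5%, against 17.1%). The change in 92.1 was below that in both other lines for 19 genes (57.6%, against 35.2%). In all 3 lines together, 3 of the 33 genes were higher in co-culture (ADM, EGLN1 and SLC2A3, or 9.09%, against 16.2%) and 5 were lower (ALDOA, ENO1, GAPDH, GPI and PFKFB3, or 15.2%, against 25.5%). These counts were chosen after the values had been seen. Co-cultured Mel 270 also differed from Mel 270 alone in its melanocyte markers: the summed signal of the 7 was 69.3 in co-culture and 79.1 alone. Each of the 7 was lower in co-culture, with a change of -2.10 in MITF, the master regulator of melanocytes, and of -2.86 in S100B. Its monocyte and macrophage markers summed to 38.2 in co-culture and 37.5 alone, where CD68 differed by 1.43 and each of the other 5 was lower in co-culture. Its endothelial markers summed to 26.9 in co-culture and 31.4 alone (5 genes), with a change of -3.76 in EMCN and the other 4 below the filter level on every array. The part of these differences in the result was not tested. In a bulk sample, a change in the share of cells that express a gene and a change in RNA per cell cannot be told apart.

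Among the oxygen sensors, EPAS1 and HIF1A, the alternative alpha subunits of the factor, had higher signal in co-cultured Mel 270, and EGLN1, the main prolyl hydroxylase that marks them for destruction, had higher signal in all 3 co-cultured lines. EPAS1 had 8.39, 10.47 and 10.65 in co-cultured 92.1, Mel 270 and Mel 290, against 7.55, 8.86 and 10.83 in the same lines alone. HIF1A had 10.71, 11.06 and 12.32 in co-culture, against 10.93, 10.20 and 12.45 alone. For both, the arrays of the co-culture group overlapped those of lines alone, and the difference between lines was wider than that between cultures. The mean change was 0.76 ± 0.90 for EPAS1 (SD, n = 3 lines, 95% confidence interval -0.13 to 1.64, adjusted p = 0.316 in limma) and 0.18 ± 0.60 for HIF1A (interval -0.46 to 0.81, adjusted p = 0.771). EGLN1 had 9.85, 9.69 and 8.42 in co-culture, against 8.97, 9.14 and 8.29 alone. Every line was higher in co-culture, most in 92.1, but the groups overlapped since both arrays of Mel 290 were the lowest. Its mean change of 0.52 ± 0.38 (SD, n = 3 lines) missed the threshold after adjustment (interval 0.06 to 0.98, adjusted p = 0.210 in limma). EGLN3, a second prolyl hydroxylase that is itself a hypoxia target, differed by -0.15, -0.12 and 0.22 at signals close to the filter level. HIF1A and EPAS1 are controlled mainly through the stability of their proteins, which arrays do not measure.

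Glucose entry and the hexose steps split by line. Of these 9 genes, 7 were higher in co-cultured Mel 270 (77.8%, against 42.7% of tested genes), and 4 of those at least 2-fold (44.4%, against 5.29%). In 92.1, 2 were higher (22.2%, against 39.9%), and in Mel 290, 3 (33.3%, against 50.8%). The median change was -0.61 in 92.1, 0.64 in Mel 270 and -0.30 in Mel 290. SLC2A3, a high-affinity glucose transporter, had 8.01, 9.54 and 10.02 in co-cultured 92.1, Mel 270 and Mel 290, against 7.86, 6.32 and 9.96 in the same lines alone. Mel 270 alone was the lowest of the 6 arrays, and its co-culture lay within the range of the other lines. The mean change over lines was 1.14 ± 1.80 (SD, n = 3 lines, adjusted p = 0.422 in limma), and without Mel 270 it was 0.10. SLC2A1, the widespread basal glucose transporter, had 8.15, 9.80 and 11.36 in co-culture, against 8.96, 8.46 and 12.24 alone. It was lower in co-culture in 92.1 and Mel 290 and higher in Mel 270, and both arrays of Mel 290 were the highest of the 6. HK2, the inducible hexokinase that traps glucose in the cell, had 8.22, 10.66 and 10.44 in co-culture, against 9.08, 8.90 and 10.19 alone. Co-cultured Mel 270 was the highest array and co-cultured 92.1 the lowest. HK1, the constitutive hexokinase, differed by 0.35, 0.64 and -0.22 in 92.1, Mel 270 and Mel 290.

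GPI, which turns glucose 6-phosphate into fructose 6-phosphate, was the gene of the 33 with the largest mean change downward. It had 9.44, 10.62 and 10.35 in co-cultured 92.1, Mel 270 and Mel 290, against 11.01, 11.17 and 11.07 in the same lines alone. Every co-culture array lay below every array alone, which held for 1 of the 33 genes (3.03%, against 5.96% of tested genes), and the difference was widest in 92.1. The mean difference was -0.95 ± 0.55 (SD, n = 3 lines, 95% confidence interval -1.54 to -0.36), with an adjusted p = 0.124 in limma, the lowest of the 33, and a range of 0.101 to 0.755 over the other settings. No gene of the 33 had every co-culture array above every array alone, against 4.03% of tested genes.

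PFKFB3 and PFKFB4 are bifunctional enzymes that set the level of phosphofructokinase's activator. PFKFB3, the more strongly kinase-acting form, had 8.10, 9.02 and 7.41 in co-culture, against 8.71, 9.28 and 8.17 alone. Each line was lower in co-culture, although the groups overlapped, and the mean difference was -0.54 ± 0.25 (SD, n = 3 lines, adjusted p = 0.146 in limma). PFKFB4 had 6.59, 8.04 and 7.46 in co-culture, against 7.23, 7.01 and 7.35 alone. Co-cultured Mel 270 was again the highest array and co-cultured 92.1 the lowest. The phosphofructokinase subunits PFKP and PFKL, which make the committed step, differed by between -0.43 and 0.30 in every line.

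**Figure D2:**
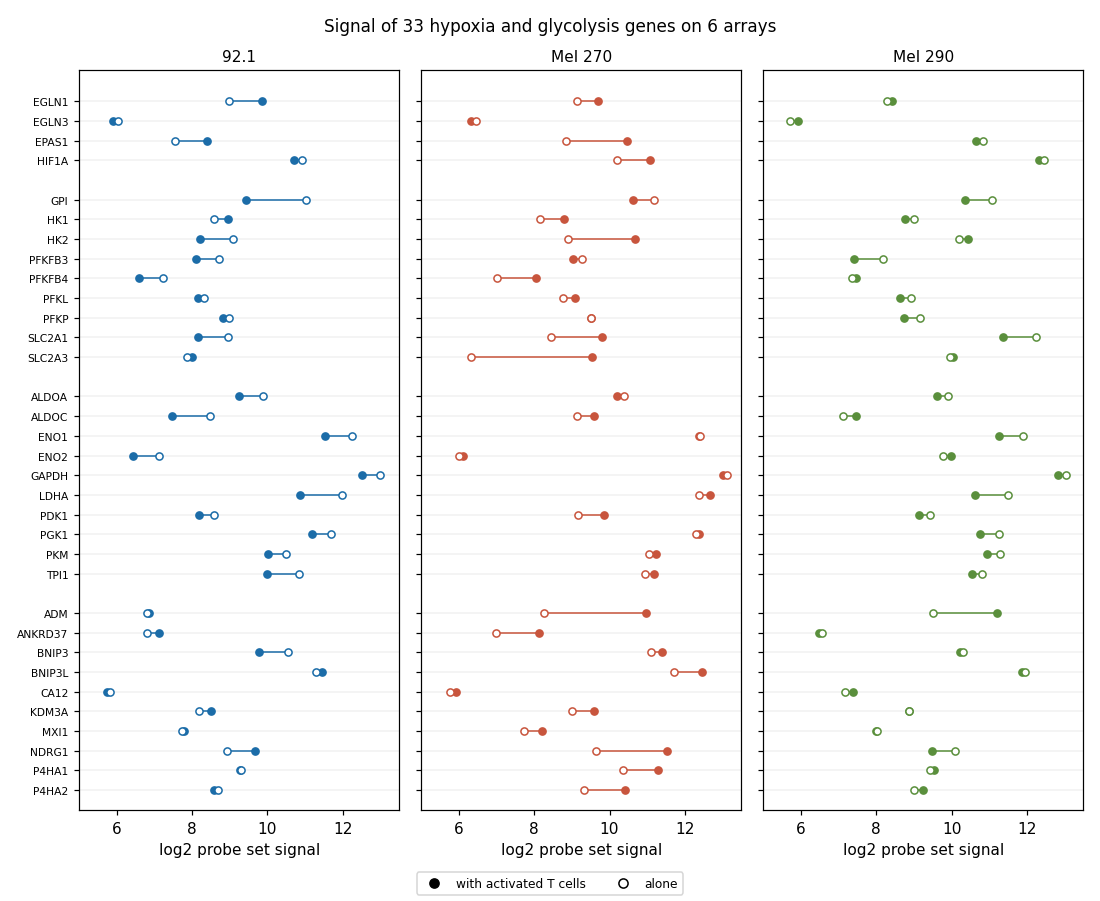
Log2 probe set signal of the 33 genes, with 1 panel per line and genes grouped by role. Filled circles are cells with activated T cells and open circles cells alone, 1 array each, so that the line between them is the change. SLC2A3 in Mel 270 has the longest line, at 9.54 with T cells and 6.32 alone.

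The triose steps and the fate of pyruvate come next in the pathway. In co-cultured 92.1, 0 of the 10 genes had higher signal (against 39.9% of tested genes), and each was lower. In Mel 270, 7 of 10 were higher (70%, against 42.7%) without reaching 2-fold (against 5.29%). In Mel 290, 2 of 10 were higher (20%, against 50.8%). The median change was -0.66 in 92.1, 0.14 in Mel 270 and -0.29 in Mel 290. LDHA, which makes lactate from pyruvate, had 10.88, 12.66 and 10.63 in co-cultured 92.1, Mel 270 and Mel 290, against 11.98, 12.38 and 11.50 in the same lines alone. The co-cultures of 92.1 and Mel 290 were the lowest 2 arrays and both arrays of Mel 270 the highest 2. ALDOC, the brain form of aldolase, had 7.47, 9.59 and 7.45 in co-culture, against 8.47, 9.13 and 7.11 alone. In 92.1 it was just short of 2-fold lower in co-culture, and the other 2 lines were higher in co-culture.

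ENO1 (enolase), ALDOA (the main aldolase) and GAPDH were lower in co-culture in all 3 lines, with changes between -0.71 and -0.04 for ENO1, between -0.63 and -0.19 for ALDOA and between -0.48 and -0.10 for GAPDH, and none was called (adjusted p of 0.246 for ENO1 and 0.245 for ALDOA in limma). TPI1, which interconverts the trioses, differed by -0.85, 0.24 and -0.26, and its second probe set by -0.66, 0.07 and -0.20, with the same signs. PDK1, a pyruvate dehydrogenase kinase, differed by -0.40, 0.70 and -0.28. PGK1, the first ATP-making enzyme of glycolysis, had 11.18, 12.36 and 10.76 in co-culture, against 11.69, 12.30 and 11.27 alone. PKM, pyruvate kinase, had 10.01, 11.24 and 10.93 in co-culture, against 10.49, 11.05 and 11.28 alone. In both genes 92.1 and Mel 290 were lower in co-culture and Mel 270 was higher. Several of these genes, GAPDH, LDHA, PGK1, TPI1, ENO1 and PKM among them, have near-identical processed pseudogenes or paralogs whose transcripts can bind the same probes, so their single values are uncertain.

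The remaining hypoxia targets were higher in co-cultured Mel 270 in 10 of 10 genes (100%, against 42.7% of tested genes), with a median change of 0.82. Of these, 4 were at least 2-fold higher (40%, against 5.29%). In 92.1, 6 of 10 were higher (60%, against 39.9%, median 0.05), and in Mel 290, 4 of 10 (40%, against 50.8%, median -0.02). ADM had 6.85, 10.96 and 11.19 in co-cultured 92.1, Mel 270 and Mel 290, against 6.79, 8.25 and 9.50 in the same lines alone. Co-cultured Mel 270 and Mel 290 were the highest 2 arrays, 6.56-fold and 3.24-fold above the same line alone, while 92.1 was low in both cultures. ADM was the only one of the 33 genes at least 2-fold higher in Mel 290, and its mean change of 1.49 ± 1.34 (SD, n = 3 lines, 95% confidence interval 0.21 to 2.76) was not called (adjusted p = 0.199 in limma). It was 0.88 without Mel 270 and 2.20 without 92.1.

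NDRG1, a stress gene induced by hypoxia in many cell types, had 9.68, 11.53 and 9.47 in co-culture, against 8.93, 9.63 and 10.08 alone. Mel 270 and 92.1 were higher in co-culture and Mel 290 was lower. ANKRD37, a small ankyrin repeat protein and direct HIF target, had 7.12, 8.12 and 6.47 in co-culture, against 6.79, 6.99 and 6.56 alone. Co-cultured Mel 270 was the highest array and both arrays of Mel 290 the lowest. P4HA2, a catalytic subunit of collagen prolyl hydroxylase, had 8.58, 10.40 and 9.24 in co-culture, against 8.68, 9.32 and 9.00 alone. P4HA1, the other main catalytic subunit, had 9.28, 11.28 and 9.52 in co-culture, against 9.29, 10.36 and 9.43 alone. For both subunits the arrays of Mel 270 were the highest 2, and 92.1 differed by 0.11 or less between cultures.

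The mitophagy receptors BNIP3 and BNIP3L differed in Mel 270 by 0.29 and 0.72, in 92.1 by -0.77 and 0.16, and in Mel 290 by -0.08 and -0.06. KDM3A, a histone demethylase, had 8.51, 9.59 and 8.86 in co-culture, against 8.19, 9.01 and 8.88 alone, with 92.1 the lowest in both cultures. CA12, a carbonic anhydrase of the cell surface, had 5.73, 5.92 and 7.37 in co-culture, against 5.82, 5.77 and 7.16 alone. In 92.1 and Mel 270 it lay close to the filter level of 5.80 on every array. MXI1, an antagonist of MYC, differed by 0.05, 0.47 and -0.03.

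**Figure D3:**
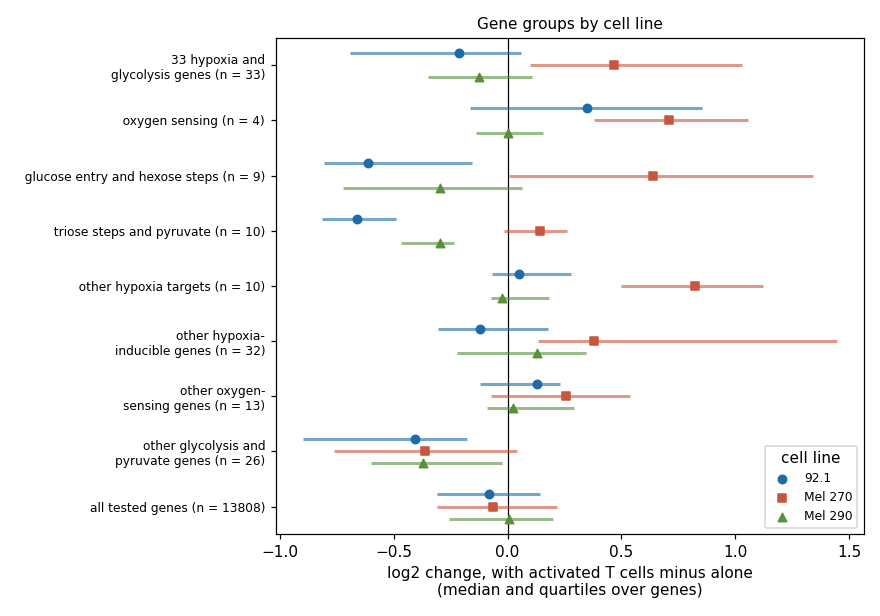
Median change with activated T cells minus alone in each line (points, log2) and the range between quartiles over genes (bars), for the 33 genes, their 4 roles, 3 further gene lists and all tested genes. The points of Mel 270 lie at 0.47 for the 33 genes and at -0.36 for the other glycolysis and pyruvate genes, where the 3 lines lie close together.

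Averaged over both cultures, the level of 13 of the 33 genes differed between lines in at least 1 contrast (39.4%, against 33.9% of tested genes). This was asked in the same limma fit by the contrast of a line, over both of its arrays, minus the mean of the other 2 lines, with adjustment over all tested genes in each contrast. The spread in this fit holds the unequal responses of the lines, since no line had repeat cultures. Mel 290 minus the others was called higher for 6 genes (18.2%, against 11.3% of tested genes) and lower for 4 (12.1%, against 14.9%). For 92.1, 0 were called higher (against 9.73%) and 6 lower (18.2%, against 6.18%). For Mel 270, 4 were called higher (12.1%, against 6.83%) and 2 lower (6.06%, against 7.62%). Quantile normalization gave 8 higher in Mel 270 (24.2%, against 7.6% of tested genes), and the filter at the median 1 lower (3.33%, against 7.89%). That filter left CA12, 1 of the 2 genes called lower in Mel 270, untested.

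Mel 290 had the highest signal of the neuronal enolase ENO2, of SLC2A1, of CA12 and of HIF1A. ENO2 had 6.44, 6.11 and 9.98 in co-cultured 92.1, Mel 270 and Mel 290, against 7.13, 6.01 and 9.77 in the same lines alone. Both arrays of Mel 290 stood more than 2 units above all others, and Mel 290 exceeded the mean of the other lines by 3.45 (SE 0.23, adjusted p = 0.00155, limma). For SLC2A1, whose signals are given above, that difference was 2.96 (SE 0.50, adjusted p = 0.0148), for CA12 it was 1.45 (adjusted p = 0.00360) and for HIF1A 1.66 (SE 0.26, adjusted p = 0.0126). The signals of Mel 290 exceeded those of both other lines on every array for these genes. The same line had lower signal than the mean of the others in EGLN1, with a difference of -1.06 (adjusted p = 0.0177), and in ALDOC, with -1.39 (adjusted p = 0.0376). It was also lower in PFKFB3, with -0.99 (adjusted p = 0.0130), and in PGK1, with -0.87 (adjusted p = 0.0247). Without Mel 270, EGLN1 was still called lower in Mel 290 than in 92.1 (-1.06, adjusted p = 0.0261). ALDOC (-0.69, adjusted p = 0.190), PFKFB3 (-0.62, adjusted p = 0.0597) and PGK1 (-0.42, adjusted p = 0.155) were then not called.

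The line 92.1 had low ADM and EPAS1. The difference of 92.1 from the mean of the other lines was -3.15 for ADM (SE 0.53, adjusted p = 0.0234, limma) and -2.24 for EPAS1 (adjusted p = 0.0223). Mel 290 was higher than the mean of the others in both, by 2.13 (adjusted p = 0.0404) and 1.93 (adjusted p = 0.0203). The call of ADM in Mel 290 was lost with a trended robust variance (adjusted p = 0.0552) and without 92.1 (adjusted p = 0.160). The call of EPAS1 in Mel 290 was also lost without 92.1, where Mel 290 exceeded Mel 270 by 1.08 (adjusted p = 0.167). For PKM the difference of 92.1 was -0.88 (adjusted p = 0.0390) and for KDM3A -0.74 (adjusted p = 0.0484). The call of KDM3A was lost with no filter on low values (adjusted p = 0.0505), with a trended robust variance (adjusted p = 0.0506), without Mel 270 (adjusted p = 0.110) and without Mel 290 (adjusted p = 0.0641). Mel 270 exceeded the mean of the others in ALDOC by 1.74 (adjusted p = 0.0337), in P4HA1 by 1.44 (adjusted p = 0.0236), in PGK1 by 1.11 (adjusted p = 0.0235) and in PFKFB3 by 1.05 (adjusted p = 0.0198). ENO2 and CA12 were called lower in 92.1, with differences of -1.18 and -0.78 (adjusted p of 0.0316 and 0.0273), and in Mel 270, with -2.27 and -0.68 (adjusted p of 0.00774 and 0.0390). Without Mel 290, the difference of 92.1 from Mel 270 turned sign for ENO2 (0.73, adjusted p = 0.173), and that of Mel 270 from 92.1 turned sign for CA12 (0.07, adjusted p = 0.805). In that contrast of 92.1 with Mel 270, 0 of the 33 genes were called in either direction, against 2.71% of tested genes higher and 1.35% lower in 92.1. Without Mel 270, 10 were called lower in 92.1 than in Mel 290 (30.3%, against 10.8% of tested genes) and 1 higher (3.03%, against 15.2%). Without 92.1, 7 were called higher in Mel 270 than in Mel 290 (21.2%, against 9.73%) and 4 lower (12.1%, against 8.31%). Mel 290 stands apart from the other 2 lines in its melanocyte markers and was confluent at the change of medium, and the part of either in these differences was not tested.

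**Figure D4:**
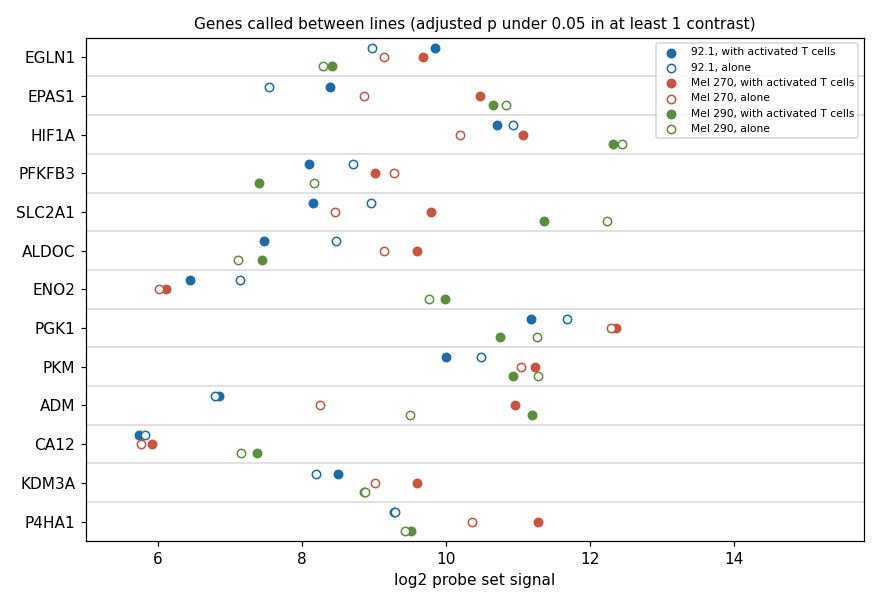
Log2 signal of the 13 genes whose level differed between lines, on 1 row per gene with the 3 lines offset and in colours. Filled circles are cells with activated T cells and open circles cells alone, 1 array each. ENO2 in Mel 290 (9.98 with T cells and 9.77 alone) lies above every array of 92.1 and Mel 270.

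Further genes of the same pathways were counted from 3 more lists. Of 32 other hypoxia-inducible genes tested, 0 were called in either direction at an adjusted p-value under 0.05, and at an unadjusted p-value under 0.05, 4 were higher (DDIT4, LOX, RORA and VEGFA, or 12.5%, against 7.02% of tested genes) and 1 lower (ERRFI1, or 3.12%, against 13%). In Mel 270, 12 of the 32 were at least 2-fold higher in co-culture (37.5%, against 5.29% of tested genes) and 0 were at least 2-fold lower (against 4.52%). In 92.1, 3 were at least 2-fold higher (9.38%, against 3.63%), and in Mel 290, 0 (against 2.07%). The change in Mel 270 was above that in both other lines for 22 of the 32 (68.8%, against 32.3% of tested genes). STC1, a secreted glycoprotein, had 5.04, 9.97 and 9.34 in co-cultured 92.1, Mel 270 and Mel 290, against 5.40, 5.69 and 8.58 in the same lines alone. Mel 270 alone was below the filter level, and 92.1 was below it in both cultures. VEGFA, the angiogenic growth factor, was higher in all 3 lines, by 0.81, 1.89 and 0.49 (mean 1.06 ± 0.73, SD, n = 3 lines, adjusted p = 0.144 in limma). DDIT4, an inhibitor of mTORC1 signalling, was higher by 1.92, 1.03 and 0.17 (mean 1.04 ± 0.87, adjusted p = 0.189 in limma).

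Of 13 further oxygen-sensing genes, 0 were called in either direction, and at an unadjusted p-value under 0.05, 3 were higher (EP300, OS9 and VHL, or 23.1%, against 7.02% of tested genes) and 1 lower (ELOB, or 7.69%, against 13%). VHL, which recognises the hydroxylated alpha subunits, was higher by 0.33, 0.58 and 0.81 in co-cultured 92.1, Mel 270 and Mel 290 (mean 0.57 ± 0.24, SD, n = 3 lines, adjusted p = 0.134 in limma). ELOB, an adaptor of the VHL ligase, differed by -0.43, -0.26 and -0.45 (adjusted p = 0.193 in limma). ARNT, the shared partner of both alpha subunits, was higher by 0.13, 0.85 and 0.19 (adjusted p = 0.336 in limma).

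The other glycolysis and pyruvate genes, mostly isoforms and enzymes that are not classical hypoxia targets, had a negative median change in all 3 lines. Of 26 tested, 0 were called in either direction, but at an unadjusted p-value under 0.05, 9 were lower (34.6%, against 13% of tested genes) and 2 were higher (PDP1 and SLC2A6, or 7.69%, against 7.02%). In all 3 lines, 15 of the 26 were lower (57.7%, against 25.5% of tested genes). The median change was -0.41 in 92.1, -0.36 in Mel 270 and -0.37 in Mel 290. PFKFB2, another bifunctional enzyme of the PFKFB family, had 6.18, 7.44 and 7.40 in co-cultured 92.1, Mel 270 and Mel 290, against 8.02, 8.78 and 8.26 in the same lines alone. Every co-culture array lay below every array alone, as in 5 of the 26 genes (19.2%, against 5.96% of tested genes), and the mean difference was -1.35 ± 0.49 (SD, n = 3 lines, adjusted p = 0.0752 in limma). PDK4, a pyruvate dehydrogenase kinase of the fasting response, had 5.36, 8.44 and 5.78 in co-culture, against 6.67, 10.73 and 6.27 alone. Both arrays of Mel 270 were the highest, and each line was lower in co-culture, with a mean difference of -1.37 ± 0.91 (adjusted p = 0.132 in limma). SLC2A6, a glucose transporter family member of lysosomes, had 8.78, 8.83 and 7.52 in co-culture, against 7.94, 7.18 and 6.86 alone. It was higher in each co-cultured line (mean 1.05 ± 0.53, SD, n = 3 lines, adjusted p = 0.104 in limma).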

How the data were processed

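The deposited values are log2 signals that the authors made with Affymetrix Expression Console 1.2.0.20, per the submitters' processing notes. How background was corrected, probes summarized and arrays normalized is not given in the sources used here. Values ran from 1.49 to 13.9. The array annotation listed 21214 of 33297 probe sets, 19460 with 1 symbol. Of these, 19429 matched a RefSeq gene (GRCh38.p14, names only) and 31 kept the annotation's symbol. Genes whose mean signal was at or above the 25th percentile (5.80) were tested with limma 3.58.1 in R 4.3.3, with cell line as a block and Benjamini-Hochberg adjustment over 13808 genes. The block follows from the design, since each line was in both groups. The deviations of the 2 arrays of a line from their group means correlated at 0.789 (92.1), 0.741 (Mel 270) and 0.832 (Mel 290) across genes. The fit had 2 residual degrees of freedom, raised by 3.10 through the moderated variance. Percentages beside a count are shares of the list, then of all tested genes. The script was tested on simulated data. The number of arrays and, for low signals, the background limit the precision. The members and lists were chosen with earlier results of these data known, so no p-value over a list is given. All 36 members are named, with signals on 6 arrays for those called in a line contrast or at least 2-fold apart in a line, and of each further list the 3 with the largest absolute mean change. Alternatives were the fit without the block, each line left out, other filters, the mean of probe sets, cyclic loess, quantile normalization, low values raised to the filter level, and a trended robust variance.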

Additional observations from a re-analysis of the deposited data

Results flagged for a closer look

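In 8 genes a line's change of at least 2-fold had the opposite sign to that of another line. That other change could be of any size. The same count was not made over all tested genes, so whether it is unusual was not tested. The differences between lines were not tested, since each rests on 1 array per line and condition. SLC2A1 was 1.34 higher in co-cultured Mel 270, against changes of -0.80 in 92.1 and -0.88 in Mel 290. LDHA differed by -1.10 in co-cultured 92.1 and by 0.27 in Mel 270. NDRG1 was 1.90 higher in Mel 270, ANKRD37 1.13 and EPAS1 1.61, and each was lower in Mel 290. HK2 was 1.76 higher in Mel 270, P4HA2 1.08 and PFKFB4 1.03, and each was lower in 92.1.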

How the results depend on the processing

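No member was called in co-culture under any of the 11 alternatives, and the lowest adjusted p among members lay between 0.101 and 0.161 except in the fit with no replicate block, where it was 0.755. Without that block the pairing by line is ignored, and 18 genes of all tested were called higher and 0 lower, against 57 and 5 with it. Mel 270 had the highest change in 29 or 30 of 33 members (28 of the 30 left by the filter at the median) under the 7 settings compared. Over all tested genes that share ran from 29.5% with no filter on low values to 37.7% with the filter at the median. Of the member counts by line contrast, quantile normalization gave 8 called higher in Mel 270 (4 as reported) and the filter at the median 1 called lower (2 as reported). CA12 was not tested under that filter. KDM3A in 92.1 was lost with no filter on low values and with the trended robust variance, and ADM in Mel 290 with the latter setting only. With 1 line left out, each contrast compares the other 2 lines, so the calls of 1 line mirror those of the other. Without Mel 270, 10 members were lower and 1 higher in 92.1 than in Mel 290 (30.3% and 3.03%, against 10.8% and 15.2%). Without 92.1, 7 were higher and 4 lower in Mel 270 than in Mel 290 (21.2% and 12.1%, against 9.73% and 8.31%). Without Mel 290, 0 were called between 92.1 and Mel 270 (against 2.71% of tested genes higher and 1.35% lower in 92.1). The line contrasts cannot be fitted without the block, since line is the term itself. Mean changes that turned sign when a line was left out were all uncalled, with ranges of -0.33 to 0.40 for ALDOC, -0.42 to 0.11 for BNIP3, -0.13 to 0.050 for EGLN3 (0.04 without Mel 270), -0.30 to 0.16 for ENO2, -0.17 to 0.37 for HIF1A, -0.30 to 1.01 for HK2, -0.34 to 0.21 for PDK1, -0.27 to 0.57 for PFKFB4, -0.23 to 0.069 for PFKL and -0.84 to 0.27 for SLC2A1 (0.23 without 92.1). Fewer samples enter these fits. With 1 array per line and condition, changes within a line have no measured error.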

Other observations

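Outside the 33, LDHB, MPC1 and PDHA1 were lower in all 3 co-cultured lines, while PDP1, the pyruvate dehydrogenase phosphatase, differed by 1.08, 0.52 and 0.51 in 92.1, Mel 270 and Mel 290. The choice of these 4 followed a look at their values. LDHB, the lactate dehydrogenase subunit that favours pyruvate, differed by -0.62, -0.90 and -0.84 in 92.1, Mel 270 and Mel 290 (mean -0.79 ± 0.14, SD, n = 3 lines, adjusted p = 0.0804 in limma). MPC1, a subunit of the mitochondrial pyruvate carrier, differed by -1.13, -0.64 and -0.74 (adjusted p = 0.0863 in limma). PDHA1, a catalytic subunit of pyruvate dehydrogenase, differed by -0.97, -0.95 and -0.53 (adjusted p = 0.0870 in limma). None passed the threshold.

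HILPDA, a hypoxia-inducible protein of lipid droplets that was also chosen after its values were seen, had 7.47, 12.25 and 6.97 in co-cultured 92.1, Mel 270 and Mel 290, against 8.30, 8.52 and 7.36 in the same lines alone. Co-cultured Mel 270 stood 3.72 above the same line alone, while the other 2 lines were lower in co-culture.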
